A study of Homo sapiens with 4 samples.

Results

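Transcription factors that set B cell and plasma cell identity, 10 in all, were followed across the 4 arrays of this series, 2 of OPM2 cells given the drug solvent DMSO (control) and 2 of OPM2 cells given VS-5584, also called SB2343, at 123 nM. They were chosen by name (IRF4, PRDM1, XBP1, POU2AF1, IKZF1, IKZF3, BCL6, PAX5, BACH2 and SPIB), by a rule that uses no measured value, though earlier results of these data were known when they were proposed, and all 10 were found among the 18377 genes represented by a probe set that the platform annotation maps to exactly 1 gene. Each had 1 such probe set. OPM2 is an established human multiple myeloma line, a tumour of plasma cells, and VS-5584 inhibits class I PI3 kinases and mTOR. Both groups were grown in serum-supplemented medium and harvested at 24 h. The sample labels give the dose as 123 nM and the series' design text as 125 nM, which it places below the concentration that inhibits growth by 50% at 48 h. The study asked which relatively early genes respond to the drug.

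B cells become antibody-secreting plasma cells when one set of transcription factors replaces another. PAX5 holds the B cell program in place, BCL6 the germinal centre program and BACH2 the resting or undifferentiated state, and all 3 oppose plasma cell differentiation. IRF4 and PRDM1, the gene of BLIMP1, shut those programs down, and XBP1 then builds the secretory apparatus. Myeloma cells keep depending on IRF4 and on the Ikaros proteins IKZF1 and IKZF3, which drugs of the thalidomide class send to degradation through cereblon.

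No member passed the test for a difference between VS-5584 and control cells. With limma, 0 of the 8 members bright enough to be tested passed an adjusted p of 0.05 (Benjamini-Hochberg), and 0 had an unadjusted p under 0.05, as was also the case with an ordinary two-sample test. Over all 11026 tested genes, 0% passed after adjustment and 10.4% had an unadjusted p under 0.05. The smallest adjusted p of a member was 0.594, for IKZF3. The largest mean differences were decreases of IKZF3 and IKZF1, by 0.26 and 0.22 on the log2 scale. Larger differences of either sign were found in 20.9% and 28.4% of tested genes. After cyclic loess IKZF3 and IKZF1 differed by -0.12 and -0.13, and the largest member differences were increases of POU2AF1 (0.23) and XBP1 (0.20). The 8 differences had a median of 0.086, against -0.064 over all tested genes, and their median size without regard to sign was 0.098, against 0.135. The median of the 8 became -0.035 when treated replicate 1 was left out, 0.0069 without control replicate 2, 0.046 without control replicate 1 and 0.14 without treated replicate 2.

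Treated replicate 2 stood apart from the other 3 arrays, and this touches every value that follows. Its log2 values were compressed, with 1.74 log2 units between the quartiles over all probe sets against 1.93 to 1.95. Relative to the control mean, the median tested gene lay at -0.14 on this array and at -0.0022 on treated replicate 1. The gap between replicates had a median of 0.196 log2 units in treated cells and 0.103 in control cells. Nothing in the labels says how the biological replicates were kept apart, so p-values measure only the spread between these samples. In such bulk RNA, fewer cells of a kind and less RNA per cell cannot be told apart.

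Promoter sequence is shown for the members whose start region held one of 8 short motifs of factors in this network, searched by exact letters on both strands in the 250 bases before each start. RefSeq promoter entries of GRCh38.p14 were present for 8 of the 10 members, with 13 start sites in all; IKZF3 and POU2AF1 were not matched. XBP1 held the endoplasmic reticulum stress element (ERSE, CCAAT and CCACG with 9 bases between), the site through which stress sensors such as ATF6 act on secretory genes. The match lay 52 to 34 bases before the start, and 0.074% of 35116 promoters held one. BCL6 held TTC and GAA with 3 bases between, the core that BCL6 itself recognises, 28 to 20 bases before 1 of its starts, as did 6.57% of promoters. No member's window held the letters of the other 6 motifs: UPRE core (TGACGTGG, in 0.612% of promoters), ISRE (GAAA and GAAA with 2 bases between, 3.02%), ETS-IRF composite (GGAA and GAAA with 2 bases between, 2.41%), octamer (ATGCAAAT, 1.63%), FOXO core (GTAAACA, 2.98%) and E-box (CACGTG, 6.34%). The ISRE and composite patterns can overlap each other. The sequences run 5′ to 3′ on the minus strand, which carries both genes, with the match in capitals.
XBP1, chr22:28800570-28800819: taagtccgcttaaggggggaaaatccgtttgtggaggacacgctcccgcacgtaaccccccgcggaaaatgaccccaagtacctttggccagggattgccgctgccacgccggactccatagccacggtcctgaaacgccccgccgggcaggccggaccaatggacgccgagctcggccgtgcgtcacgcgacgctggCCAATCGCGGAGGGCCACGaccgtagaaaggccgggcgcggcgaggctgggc
BCL6, chr3:187745469-187745718: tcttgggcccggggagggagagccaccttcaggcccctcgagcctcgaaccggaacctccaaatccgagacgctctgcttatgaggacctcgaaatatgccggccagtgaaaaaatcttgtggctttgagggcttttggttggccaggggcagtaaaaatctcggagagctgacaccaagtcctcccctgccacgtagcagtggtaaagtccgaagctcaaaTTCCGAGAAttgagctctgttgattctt

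Of the factors that drive the plasma cell state, IRF4 is required for the survival of myeloma cells. Its intensity was 1969 and 1857 on control replicates 1 and 2 and 2170 and 1658 on treated replicates 1 and 2. The treated arrays thus lay on either side of both controls. Mean log2 levels (± SD, n = 2 each) were 10.90 ± 0.060 without and 10.89 ± 0.27 with the drug, a log2 difference of -0.012 ± 0.16 (SE; limma adjusted p = 0.986). The 95% interval of the treated-to-control ratio ran from 0.776 to 1.27. The gap between the treated replicates was 0.39 log2 units, and 17.5% of tested genes had a larger one. The mean difference was positive after cyclic loess (0.052).

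PRDM1, the repressor that ends the B cell program, stood at 2158 and 2245 on the control arrays and at 2481 and 2230 on the treated arrays. Treated replicate 1 was above both controls and treated replicate 2 lay between them. The log2 difference was 0.096 ± 0.13 (SE; limma adjusted p = 0.805), and the interval of the ratio ran from 0.867 to 1.32.

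XBP1, whose stress-element promoter is printed above, read 1388 and 1517 in control and 1571 and 1596 in treated cells. It was the 1 member whose treated arrays both exceeded both controls, as did those of 14.7% of tested genes. Log2 levels were 10.50 ± 0.091 and 10.63 ± 0.016 (SD, n = 2 each), and the difference of 0.13 ± 0.13 (SE) did not pass (limma adjusted p = 0.741; ratio 1.09, interval 0.889 to 1.34). The treated replicates were close, with 0.11 on replicate 1 and 0.14 on replicate 2 above the control mean, and the groups stayed apart after median centring and after cyclic loess. The probe set lists transcripts of the spliced and the unspliced form together, so the splicing that activates XBP1 was not measured.

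POU2AF1, the B cell coactivator of octamer-binding factors, read 226 and 279.9 on the control arrays and 282 and 251 on the treated arrays. The groups overlapped, and the gap between the controls (0.31 log2 units) was larger than that between the treated arrays (0.17). Only 6.11% of tested genes had a larger gap between controls. The log2 difference was 0.083 ± 0.15 (SE; limma adjusted p = 0.859), with an interval of the ratio from 0.836 to 1.34.

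**Figure D1:**
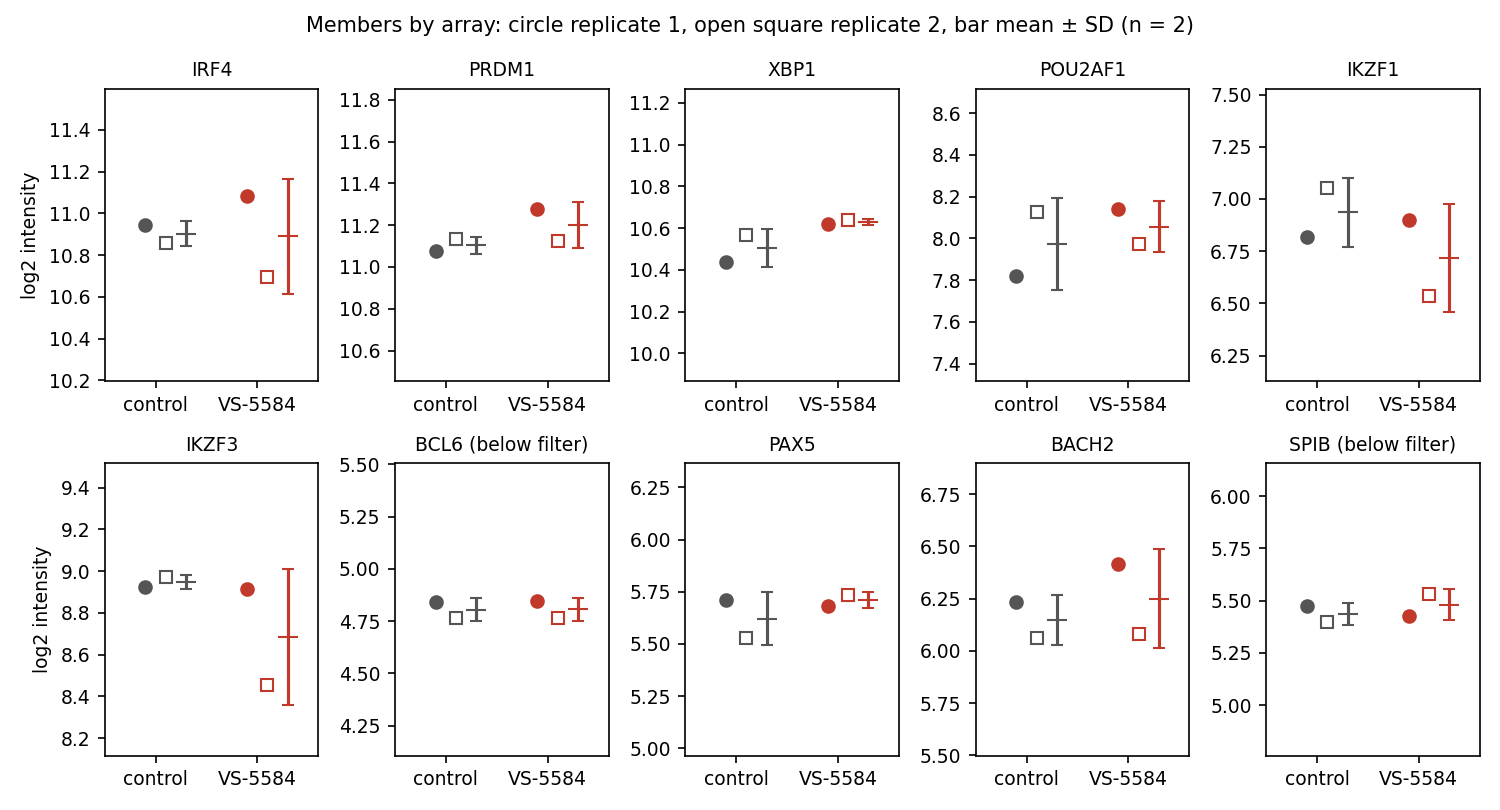
Log2 intensity (vertical axis, each panel spanning the same number of log2 units) of the 10 factors on each control (grey) and VS-5584 (red) array, with the mean ± SD of the 2 arrays of a group beside the points. XBP1 is higher on both treated arrays, IKZF3 is lower on both, and in the other 8 panels the groups overlap.

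The Ikaros factors were the members with the largest mean decreases from control, and in both the shortfall lay mostly on treated replicate 2. IKZF3, the gene of Aiolos, read 486 and 501 in control and 483 and 351 in treated cells. Both treated arrays were below both controls, as for 29.2% of tested genes, but treated replicate 1 (483) lay just under the nearer control (486). Log2 levels (± SD, n = 2 each) were 8.95 ± 0.033 without and 8.69 ± 0.33 with the drug, which differ by -0.26 ± 0.17 (SE; limma adjusted p = 0.594). The ratio was 0.835, with an interval from 0.644 to 1.08. Treated replicate 1 lay at -0.030 from the control mean. Treated replicate 2 lay at -0.49, or at -0.35 relative to the median tested gene of that array. Without treated replicate 1 IKZF3 passed (-0.49 ± 0.12, limma adjusted p = 0.0165), as did 23.9% of tested genes in that fit. After cyclic loess the groups of IKZF3 overlapped.

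IKZF1, the gene of Ikaros, read 113 and 133 on the control arrays and 119 and 92.6 on the treated arrays. Treated replicate 1 lay between the controls and treated replicate 2 below both. The difference was -0.22 ± 0.16 (SE; limma adjusted p = 0.644), with an interval of the ratio from 0.666 to 1.11. Treated replicates 1 and 2 lay -0.037 and -0.40 from the control mean on the log2 scale.

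The factors of the B cell state were dim. Intensities of PAX5 were 52.4 and 46.2 in control and 51.4 and 53.3 in treated cells. Its mean over the 4 arrays was just above the intensity of 48.9 below which the means of the lowest 40% of genes lay, and control replicate 2 was under it. The groups overlapped, and the log2 difference was 0.089 ± 0.14 (SE; limma adjusted p = 0.827), with a ratio interval of 0.861 to 1.31. BACH2, a repressor that delays plasma cell differentiation, read 75.2 and 66.8 in control and 85.4 and 67.7 in treated cells. Its treated replicate 1 was above both controls and replicate 2 between them, and the difference was 0.10 ± 0.15 (SE; limma adjusted p = 0.828; ratio interval 0.842 to 1.36).

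BCL6 and SPIB lay below the filter and were read from a fit of all 18377 genes. BCL6, the master repressor of germinal centre B cells, read 28.7 and 27.2 on the control arrays and 28.8 and 27.2 on the treated arrays, a log2 difference of 0.0012 ± 0.085 (SE; limma adjusted p = 0.998). SPIB, an ETS factor of B cells that can partner IRF4, read 44.4 and 42.2 in control and 43.0 and 46.3 in treated cells, a difference of 0.045 ± 0.087 (limma adjusted p = 0.926). The groups overlapped for both, and both signs turned after median centring and after cyclic loess. Whether probe sets this dim carry signal above background was not tested, and a constant in the deposited values would shrink their ratios.

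Both treated arrays lay on the same side of both controls for 2 of the 10 members, XBP1 and IKZF3, that is 2 of the 8 tested, where 43.9% of tested genes did so. After cyclic loess the members were PRDM1, XBP1 and POU2AF1, all higher, where 20.4% of tested genes were higher without overlap. The share in either direction was not computed after cyclic loess, so the 43.9% has no counterpart there. Among the 8 tested, 5 had a higher mean in treated cells and 3 a lower one, and of all tested genes 62.7% were lower. The 95% intervals of all 10 members included no difference, and they reached at most 1.36-fold upward (BACH2) and 1.55-fold downward (IKZF3).

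**Figure D2:**
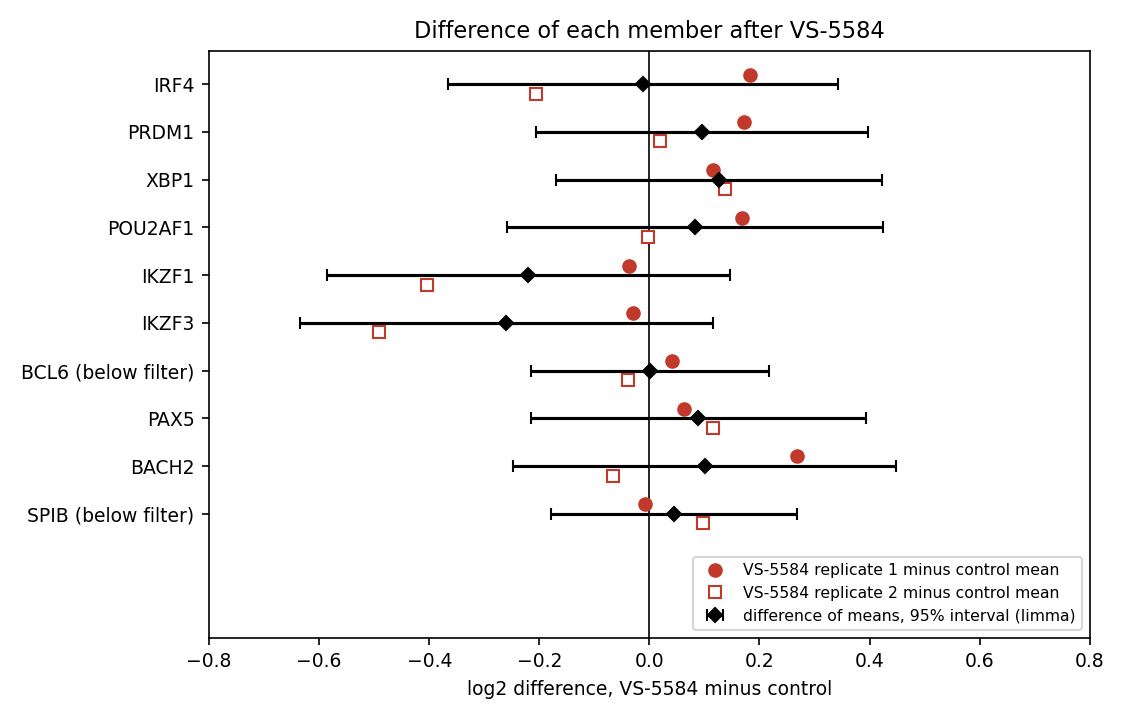
Log2 difference between VS-5584 and control (horizontal axis) for each of the 10 factors, as the difference of means with limma's 95% interval (black) and as each treated array minus the control mean (red). Every interval crosses 0, and IKZF1 and IKZF3 have treated replicate 2 at -0.40 and -0.49 while treated replicate 1 lies at -0.037 and -0.030.

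The treated arrays differed most in IKZF3, IRF4, IKZF1 and BACH2, by 0.46, 0.39, 0.37 and 0.34 log2 units, and in each of them treated replicate 2 was the lower. In XBP1 and PAX5 the treated arrays differed by 0.023 and 0.053. Relative to the median tested gene of its array, treated replicate 2 was higher than control by 0.28 for XBP1 and 0.25 for PAX5. Treated replicate 1 was higher by 0.12 and 0.064. Measured in the same way, PRDM1 was higher by 0.17 on treated replicate 1 and 0.16 on the other treated array, and POU2AF1 by 0.17 and 0.14. By this measure the dim SPIB and BCL6 lay at 0.24 and 0.10 on treated replicate 2, and at -0.0059 and 0.043 on treated replicate 1. After cyclic loess the mean log2 difference was 0.20 for XBP1 and 0.034 for PAX5. The part of the compression of treated replicate 2 in these values was not tested.

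**Figure D3:**
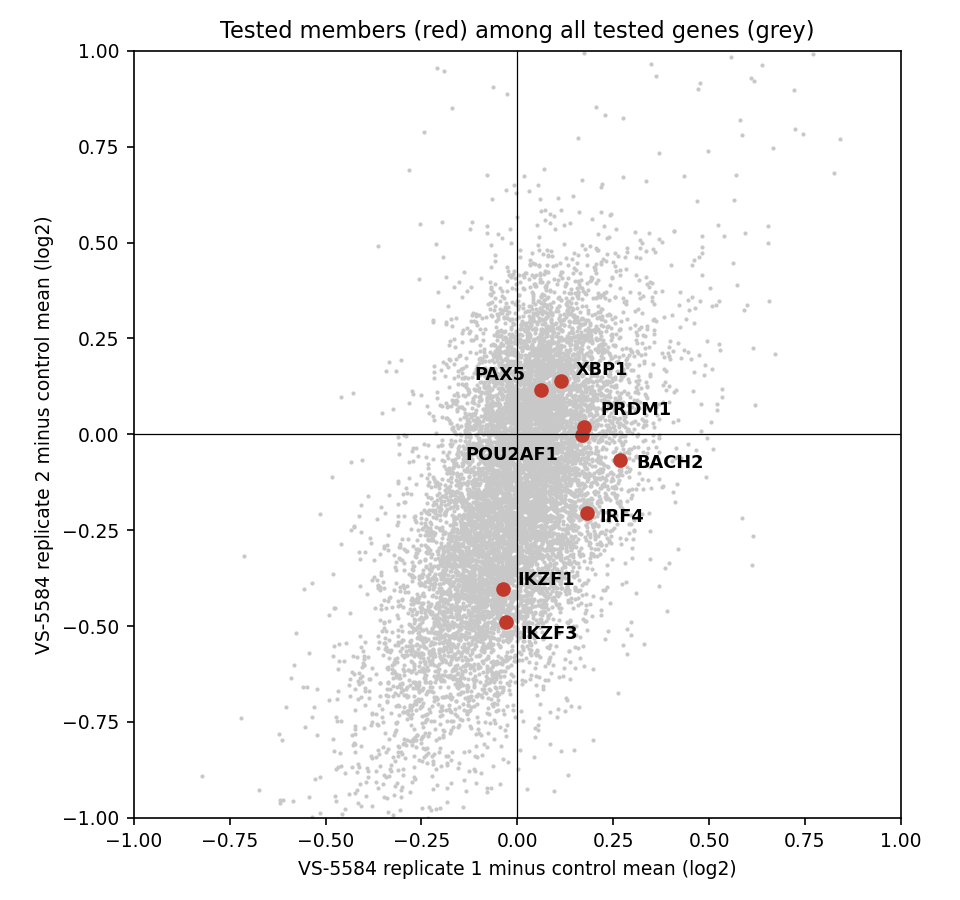
Log2 difference from the control mean on treated replicate 1 (horizontal axis) and treated replicate 2 (vertical axis) for tested genes (grey; 10930 of 11026 lie within the axes) and the 8 tested members (red). IKZF1 and IKZF3 lie low on the vertical axis and near 0 on the horizontal. IRF4 and BACH2 lie to the right and below 0, and PRDM1, XBP1 and PAX5 lie above 0 on both.

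Markers of the plasma cell state were present in both groups. Of 12 plasma cell markers 10 were above the filter, among them JCHAIN, the joining chain of secreted antibody polymers, GPRC5D, an orphan receptor, and TNFRSF17, the receptor BCMA. JCHAIN read 3099 and 3354 in control and 2815 and 4731 in treated cells. Summed over the 12, intensity ran from 8248 to 9345 in control and 9562 to 10231 in treated cells. JCHAIN on treated replicate 2 (4731) was a large part of the upper sum, and its groups overlapped. The groups of GPRC5D and TNFRSF17 overlapped too. Without overlap, 2 of the 10 were higher and 1 lower, where 14.7% and 29.2% of tested genes were. The median difference of the 10 was 0.11, against -0.064 over all tested genes, with 6 higher and 4 lower. After cyclic loess the median was 0.20, against -0.010, with 9 higher and 1 lower. None of the 10 passed limma's adjusted threshold, and 1, DERL3, had an unadjusted p under 0.05 (0.0415). DERL3 differed by 0.32 ± 0.13 (SE; limma adjusted p = 0.467), with both treated arrays above both controls. Markers of other cells were mostly below the filter: 0 of 8 T cell, 1 of 8 myeloid, 1 of 6 erythroid and platelet and 4 of 10 fibroblast, endothelial and epithelial genes lay above it. Summed intensities of these lists were 277 to 292 in control and 288 to 304 in treated cells, 269 to 275 and 277 to 303, 314 to 326 and 306 to 329.9, and 485 to 503 and 496 to 575, in the same order. KRT18, a keratin, read 73.4 and 95.3 in control and 80.3 and 172 in treated cells, high on the same treated replicate 2 on which IKZF1 and IKZF3 were low. Of the same list, PECAM1, an endothelial adhesion gene, was low on that array (91.2 and 80.8 in control, 86.2 and 57.9 in treated cells), and COL1A1, a collagen, read 77.9 and 79.2 in control and 84.8 and 83.1 in treated cells. KRT8, the keratin that pairs with KRT18, was below the filter and lay 0.0054 and 0.11 from the control mean on the log2 scale. The part of these genes in the values of the members was not tested.

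Other transcription factors of the B lineage had small differences of both signs, and none passed. Of 19 tested, 12 had a higher and 7 a lower mean, with a median of 0.031 that turned to -0.015 after median centring. Without overlap, 7 were higher and 4 lower, where 14.7% and 29.2% of tested genes were. In limma 0 passed after adjustment, and 0 had an unadjusted p under 0.05. ETS1, an ETS factor that restrains plasma cell differentiation, was lowest in p, with 163 and 164 in control and 151 and 112 in treated cells (-0.33 ± 0.16, SE; limma adjusted p = 0.519). MEF2C, a factor of B cell activation, read 2911 and 3047 in control and 3398 and 3464 in treated cells, a difference of 0.20 ± 0.13 (limma adjusted p = 0.588), with both treated arrays above both controls. Some direct partners of the members in this list were named for that role after values were seen. POU2F2, the octamer factor that POU2AF1 binds, differed by 0.013, with overlapping groups. SPI1 and BATF, which bind DNA together with IRF4, differed by 0.18 and 0.095 (limma adjusted p = 0.628 and 0.803). Both treated arrays were above both controls for SPI1 and for BATF. FOXO1, a B cell factor that AKT signalling keeps out of the nucleus, differed by -0.079 (limma adjusted p = 0.855).

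Genes that XBP1 drives, which build the secretory apparatus, had small differences of both signs. All 20 were tested; 6 had a higher and 14 a lower mean, 0 had an unadjusted p under 0.05, and 3 were higher and 3 lower without overlap, where 14.7% and 29.2% of tested genes were. After cyclic loess 15 had a higher and 5 a lower mean. Their median was -0.068 (0.031 after cyclic loess), at 0.070 on the first treated array and -0.20 on the second. HERPUD1, a component of endoplasmic reticulum degradation, differed by -0.21 ± 0.14 (SE; limma adjusted p = 0.603), and SSR3, a subunit of the translocon-associated complex, by 0.18 ± 0.14 (0.660). ERN1, which encodes the sensor IRE1 that splices XBP1 mRNA, differed by 0.048.

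Genes that PAX5 activates were mostly too dim to test, as PAX5 itself nearly was. Only 4 of 14 were above the filter, and of these LEF1, a Wnt-pathway factor of early B cells, differed by -0.42 ± 0.19 (SE; unadjusted p = 0.0492, limma adjusted p = 0.478). Its treated arrays lay at -0.13 (replicate 1) and -0.71 (replicate 2). BLNK, the adaptor of B cell receptor signalling, differed by -0.12 ± 0.13 (limma adjusted p = 0.758). Of 13 germinal centre genes, the program of BCL6, 6 were tested. MYBL1, a MYB-family factor of germinal centre cells, read 1127 and 1032 in control and 885 and 781 in treated cells, below both controls on both treated arrays. It differed by -0.38 ± 0.14 (SE; unadjusted p = 0.0229) and did not pass (limma adjusted p = 0.423). S1PR2, a receptor that confines germinal centre B cells, differed by 0.16 ± 0.14 (limma adjusted p = 0.706).

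In the list of Ikaros relatives and the cereblon ligase, which also held other genes tied to that ligase, 12 were tested. Of these 4 had a higher and 8 a lower mean, where 62.7% of all tested genes were lower. Their median of -0.096, against -0.064 over all tested genes, became 0.0027 after cyclic loess. IKZF5, the Ikaros relative Pegasus, read 218 and 215 in control and 205 and 144 in treated cells (-0.33 ± 0.17, SE; limma adjusted p = 0.535). It was thus low on treated replicate 2 (-0.59), as IKZF1 and IKZF3 were, and closer to control on treated replicate 1 (-0.082). IKZF4, another relative, differed by 0.072. CUL4A, a cullin of the ligase, differed by -0.36 ± 0.15 (SE; unadjusted p = 0.0397, limma adjusted p = 0.462). CUL4B, the other cullin in the list, differed by -0.054 (limma adjusted p = 0.890). CRBN, the cereblon gene whose product recruits IKZF1 and IKZF3, differed by 0.00058, with 0.12 and -0.12 on the 2 treated arrays.

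The list of cofactors of the members had the lowest median of the lists, -0.13, against -0.064 over all tested genes. In it 18 of 22 tested genes were lower, against 62.7%. The list also held ERN1 and ATF6 (0.048 and 0.055), sensors that act on XBP1 and are not cofactors. The treated arrays gave medians of -0.045 (replicate 1) and -0.25 (replicate 2), and cyclic loess gave -0.036. Without overlap, 10 were lower and 1 higher, where 29.2% and 14.7% of tested genes were. EHMT2, the histone methyltransferase G9a that BLIMP1 recruits, differed by -0.32 ± 0.14 (SE; unadjusted p = 0.0443, limma adjusted p = 0.469), and TLE3, a Groucho-family corepressor, by -0.28 ± 0.13 (0.483). PRMT5, an arginine methyltransferase partner of BLIMP1, differed by -0.28, BCOR, a corepressor of BCL6, by -0.18, and MAFG, a small MAF partner of BACH2, by -0.15. None of these 3 passed (limma adjusted p = 0.577, 0.671 and 0.734).

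**Figure D4:**
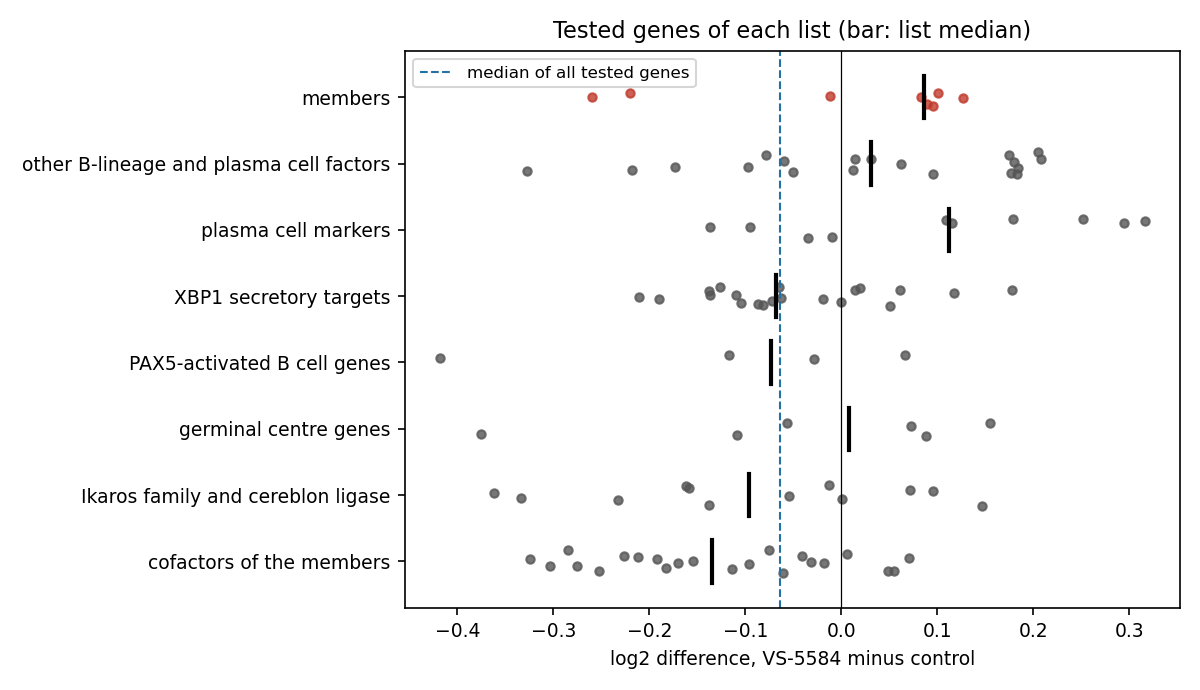
Log2 difference between VS-5584 and control (horizontal axis) for each tested gene of the members (red) and of the related lists (grey), with list medians as bars and the median of all tested genes as a dashed line at -0.064. The list of cofactors has a median of -0.13 and the members of 0.086, and no gene shown passed the adjusted threshold.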

How the data were processed

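Total RNA was column-purified, turned into biotin-labelled cDNA and hybridised to 4 one-colour arrays, per the labels' protocols. Each of 28869 probe sets has 1 deposited intensity on each array, on a linear scale. The authors' method was RMA, per the submitters' processing notes; no version, background step or later step is given in the sources used here. Scanner files were not used here, and precision is limited by there being 4 arrays.

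Intensities were turned into log2 values without further normalization. Of the probe sets, 19310 carried 1 gene, 1752 several and 7807 none listed; symbols came from RefSeq (GRCh38.p14) for 19279. The probe set with the highest mean stood for a gene, and genes in the lowest 40% by mean were left out. Groups, taken from the titles, were compared by lmFit and eBayes without trend (limma 3.58.1 in R 4.3.3), two-sided, adjusted over 11026 genes, and the code was tested on simulated data. Named genes were all members, the 2 genes of smallest p in each related list, and the 3 markers of highest mean in each marker list, of which examples are printed. Other list genes (POU2F2, SPI1, BATF, FOXO1, ERN1, ATF6, IKZF4, CRBN, CUL4B, PRMT5, BCOR, MAFG, DERL3 and KRT8) were named after their values were seen. Most were named for a known tie to a member. The members and lists were chosen with earlier results of these data known. Alternatives were the replicate number as a block, other scalings, filters, prior variance, probe set averaging, a subtracted constant, each array left out and an unmoderated test. List medians under these were added after the data were seen. Figures were drawn with matplotlib 3.10.9.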

Additional observations from a re-analysis of the deposited data

How the results depend on the processing

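With all 4 arrays, 90 of 95 member values over 10 alternatives kept their direction, and none passed (adjusted p 0.426 to 0.9995). Blocking, filters, prior variance, the unmoderated test and probe set averaging could not turn a sign, since they leave each member's difference unchanged. Direction was thus open to change only under median centring, cyclic loess and the subtracted constant. The 5 that turned sign were BCL6 (-0.045) and SPIB (-0.0011) after median centring, and IRF4 (0.052), BCL6 (-0.013) and SPIB (-0.011) after cyclic loess. Leaving out each array in turn gave ranges of -0.21 to 0.18 for IRF4, 0.018 to 0.17 for PRDM1, 0.062 to 0.19 for XBP1, -0.072 to 0.24 for POU2AF1, -0.40 to -0.037 for IKZF1, -0.49 to -0.030 for IKZF3, -0.039 to 0.041 for BCL6, -0.0014 to 0.18 for PAX5, -0.067 to 0.27 for BACH2 and -0.0081 to 0.097 for SPIB. In these fits the lone array of a group is assumed to vary like the other group. The count of members past the threshold was then 0 to 1, the 1 being IKZF3 without treated replicate 1. Members without overlap numbered 4 to 7 of all 10, with BCL6 and SPIB counted though below the filter. With an array fewer, the groups did not overlap for 67% to 85.4% of tested genes. Among all tested genes, 0 passed in the reported fit, 16 after cyclic loess, 58 with the lowest 60% left out, 80 with an intensity trend, 2 with 16 subtracted, and 2 to 2636 with an array left out. The replicate number as a block gave 432 genes and no member; same-numbered arrays deviated together at r = 0.156 over genes, and with 2 pairs they share only a number. At an unadjusted p under 0.05, 164 genes were higher and 985 lower, and 482 and 877 after cyclic loess. Causes were not tested. Dimness limits what BCL6, SPIB and PAX5 can show.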
